A study of Mus musculus with 14 samples.

Results

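The DNA replication licensing genes described here are Mcm2, Mcm3, Mcm4, Mcm5, Mcm6, Mcm7, Mcm10, Cdc6, Pcna and Gins2, chosen by their symbols from the 24411 genes counted in each kidney library. All 10 genes were found, and all 10 passed the filter on low counts that left 14300 genes for testing. Bulk RNA sequencing was performed on kidneys of male C57/B6 mice of 8 weeks at day 0 (n = 4 libraries) and at 1 day (n = 5) and 3 days (n = 5) after renal ischemia/reperfusion injury (IRI). The labels name no genetic change and no drug, and whether the day 0 mice had sham surgery is not given in the sources used here. RNA was isolated with TRIzol, and a TruSeq kit of Illumina was used for library preparation. The labels do not say that every library came from a separate animal, so the p-values measure the spread between these libraries only.

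Licensing is the step that prepares chromosomes for a single round of copying. In G1 the origin recognition complex, Cdc6 and Cdt1 load the ring-shaped helicase made of Mcm2 to Mcm7 onto DNA, and at the start of S phase the GINS complex (to which Gins2 belongs), Cdc45 and Mcm10 turn the loaded ring into an active helicase, while Pcna, the sliding clamp, holds the polymerases on the template. Most of these genes are known targets of E2F transcription factors and are low in resting cells. Tubular epithelium of the adult kidney divides rarely and is known to enter the cell cycle after injury.

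Sequences around the RefSeq start sites of these genes are shown because several of the genes moved together between libraries. RefSeq windows on GRCm38.p6, from 250 bases before the start site to 50 bases after it, were at hand for 8 of the 10 genes (9 windows, of which 2 belong to Mcm7), and Mcm4 and Gins2 had no entry. Each window was searched on both strands for the E2F letters TTTCCCGC, TTTGCCGC, TTTCGCGC and TTTGGCGC and for CCAAT. Capitals mark the E2F matches, which read as GCGGGAAA, GCGCGAAA or GCGCCAAA where they lie on the opposite strand. The Cdc6, Mcm7 and Mcm2 windows are printed because these genes were among the 2 with the largest and the 2 with the smallest difference between day 3 and day 0, and the Mcm6 window was added after the search because it held the most matches.
Cdc6, chr11:98907901-98908200, plus strand: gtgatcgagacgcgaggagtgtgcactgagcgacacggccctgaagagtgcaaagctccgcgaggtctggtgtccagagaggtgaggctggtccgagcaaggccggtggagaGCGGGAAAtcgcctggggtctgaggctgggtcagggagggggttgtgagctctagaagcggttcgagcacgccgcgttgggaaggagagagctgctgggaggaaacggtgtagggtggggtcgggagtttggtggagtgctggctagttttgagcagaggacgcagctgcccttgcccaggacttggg
Mcm6, chr1:128359656-128359955, minus strand: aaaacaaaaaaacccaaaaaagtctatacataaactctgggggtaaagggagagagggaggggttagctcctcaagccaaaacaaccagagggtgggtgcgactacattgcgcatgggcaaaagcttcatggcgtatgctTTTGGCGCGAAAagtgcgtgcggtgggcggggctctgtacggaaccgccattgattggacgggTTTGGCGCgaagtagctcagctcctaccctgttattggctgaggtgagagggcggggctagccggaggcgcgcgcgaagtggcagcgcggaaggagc
Mcm7, chr5:138171834-138172133, minus strand: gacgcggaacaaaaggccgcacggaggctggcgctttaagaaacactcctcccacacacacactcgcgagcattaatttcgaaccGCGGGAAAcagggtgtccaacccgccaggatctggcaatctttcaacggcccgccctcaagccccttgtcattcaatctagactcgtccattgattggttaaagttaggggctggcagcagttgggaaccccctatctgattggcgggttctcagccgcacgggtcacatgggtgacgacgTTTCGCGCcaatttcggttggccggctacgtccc
Mcm2, chr6:88898731-88899030, minus strand: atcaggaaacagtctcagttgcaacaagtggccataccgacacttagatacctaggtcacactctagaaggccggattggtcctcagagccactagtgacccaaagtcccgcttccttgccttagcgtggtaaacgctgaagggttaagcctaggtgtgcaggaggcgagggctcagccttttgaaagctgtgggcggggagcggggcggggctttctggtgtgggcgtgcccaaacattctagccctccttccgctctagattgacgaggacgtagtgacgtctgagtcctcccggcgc

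The E2F letters were found in 5 of the 9 windows, those of Mcm3, Mcm5, Mcm6, Mcm7 (the window printed) and Cdc6, against 2.27% of all 32851 windows of the same length. CCAAT was found in 8 of the 9 windows, all but that of Cdc6, against 37.4% of all windows. The Mcm6 window held 3 E2F matches, at -110, -106 and -47 from the start site, of which the first and the second overlap. The pair in the Mcm5 window, at -153 and -149, overlaps in the same way. In the Mcm7 window the match at -165 lies apart from the one at 16, which shares a base with the CCAAT at 23. Mcm2, Mcm10 and Pcna had none of the searched E2F letters in their windows, which says nothing of other spellings or positions. A match is a description of the letters and was not tested as a site of binding.

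The loci lie on GRCm38 as follows in the GENCODE M21 annotation. Mcm2 (ENSMUSG00000002870.8) spans chr6:88883474-88898780 on the minus strand, Mcm3 (ENSMUSG00000041859.10) chr1:20802968-20820312 on the minus strand, and Mcm4 (ENSMUSG00000022673.5) chr16:15623897-15637400 on the minus strand. Mcm5 (ENSMUSG00000005410.6) spans chr8:75109569-75128439 on the plus strand, Mcm6 (ENSMUSG00000026355.11) chr1:128331590-128359664 on the minus strand, and Mcm7 (ENSMUSG00000029730.16) chr5:138164583-138172422 on the minus strand. Mcm10 (ENSMUSG00000026669.14) spans chr2:4989714-5012791 on the minus strand, Cdc6 (ENSMUSG00000017499.15) chr11:98907801-98923940 on the plus strand, Pcna (ENSMUSG00000027342.14) chr2:132249162-132253314 on the minus strand, and Gins2 (ENSMUSG00000031821.11) chr8:120578633-120589304 on the minus strand. Mcm7 overlaps Cops6 and Ap4m1 on the other strand and the microRNA genes Mir25, Mir93 and Mir106b on its own, and Gins2 overlaps Gse1 and Gm20388 on the other strand, from which the strand-specific counts separate it. The RefSeq start sites used for the printed windows need not be the outermost GENCODE ones, and the Cdc6 and Mcm7 windows lie wholly within the spans given here. Pcna has 2 processed pseudogenes, Pcna-ps1 and Pcna-ps2, and reads that map to both a gene and its copy were not counted, so the level of Pcna is uncertain.

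Levels are counts per 1000000 counts in a library (CPM), scaled between libraries by edgeR's TMM method. Between 12485579 and 20476979 reads per library fell on genes. Library names carry a 3-digit number for 2 libraries of day 1 (replicates 1 and 2) and for 3 libraries of day 3 (replicates 1 to 3), and a 1-digit number for all others, day 0 included. What the format marks is not stated, and since it may be a batch, values are also given within each format. Of the markers checked in the labelled tissue, the summed level of 10 proximal tubule genes was 13950 to 15600 CPM at day 0. Pairs of libraries of a day differed by more than counting noise (chi-square per degree of freedom 5.95 to 241), so none was counted as a repeat of another.

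Summed over the helicase ring genes Mcm2 to Mcm7, the day 0 libraries had 68.1 to 138 CPM. After IRI some libraries had 318 to 402 CPM and the others 89.7 to 144 CPM. Replicate 2 of day 1 and replicates 2 and 3 of day 3 had all 10 licensing genes above every library of day 0, at a median of 4.07, 3.56 and 3.96 times the day 0 mean. The other 7 libraries taken after IRI had 3 to 5 of the 10 genes above every library of day 0, at medians of 0.965 to 1.51 times the day 0 mean. The share of all genes above every day 0 library was not counted for single libraries, so these counts have no background to be set against. By edgeR's quasi-likelihood test with Benjamini-Hochberg adjustment over all genes tested, Mcm4 and Pcna rose at day 1, and Mcm4, Mcm6, Pcna and Gins2 rose at day 3. These are 2 of 10 genes at day 1, where 23.3% of all genes tested were called higher, and 4 of 10 at day 3, where 19.5% were. All 10 log2 fold changes were above 0 at both days.

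**Figure D1:**
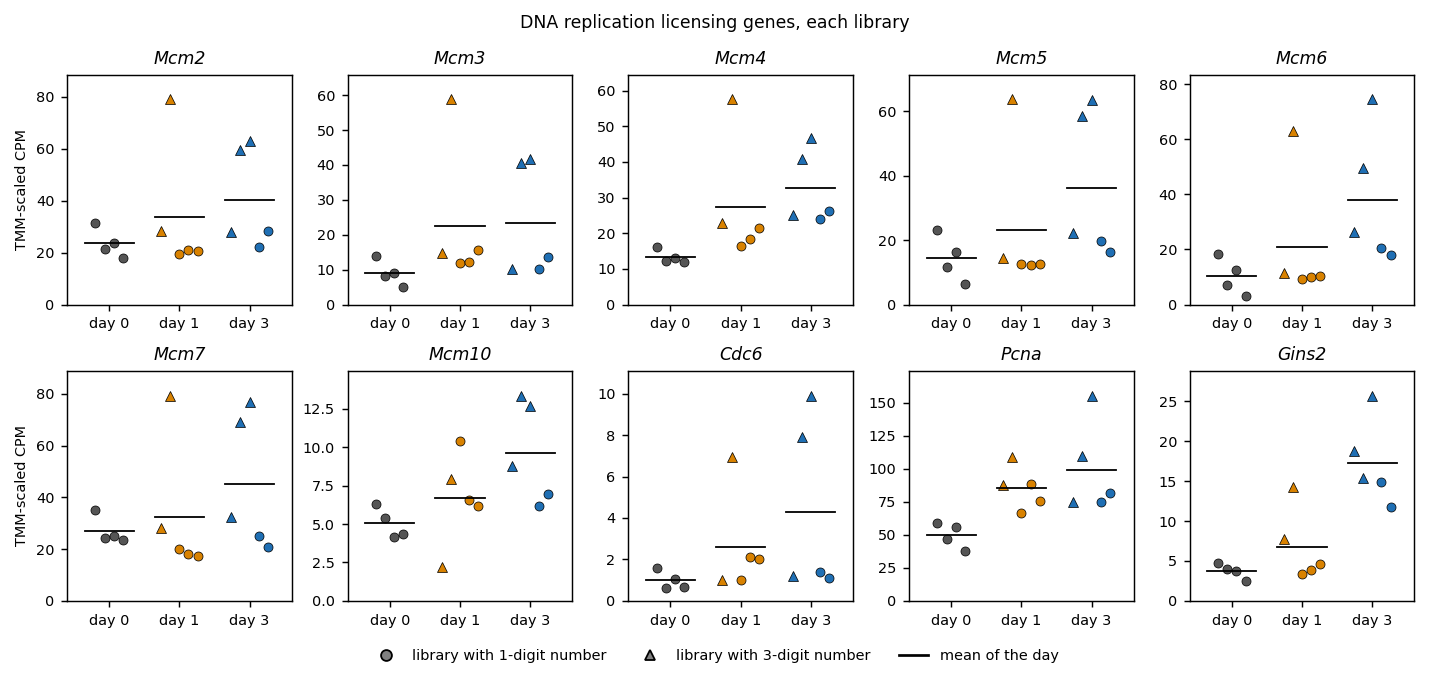
Level of each of the 10 licensing genes (TMM-scaled CPM, vertical axis from 0) in every library by day, with circles for libraries with 1-digit numbers, triangles for those with 3-digit numbers and bars for the mean of the day. Replicate 2 of day 1 and replicates 2 and 3 of day 3 are the high triangles in most panels, for example 79.1, 59.5 and 62.9 CPM for Mcm2, while the day 0 libraries of Mcm2 lie between 18.1 and 31.3 CPM.

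Among the ring subunits, Mcm4 had the steadiest day 0 level. It was at 16.2, 12.2, 13.01 and 11.9 CPM in replicates 1 to 4 of day 0, at 22.7, 57.6, 16.4, 18.5 and 21.5 CPM in replicates 1 to 5 of day 1, and at 25.1, 40.8, 46.7, 23.9 and 26.2 CPM in replicates 1 to 5 of day 3. Every library of day 1 and of day 3 lay above every library of day 0. The means were 13.3 ± 1.98 CPM (SD, n = 4), 27.3 ± 17.1 CPM (SD, n = 5) and 32.6 ± 10.5 CPM (SD, n = 5). Its log2 fold change at day 1 was 1.04 ± 0.35 (standard error, with an edgeR adjusted p of 0.0264) and that at day 3 was 1.29 ± 0.35 (adjusted p = 0.0122). Mcm4 was called at day 3 in all 14 fits that left out a library, and at day 1 in 10 of 14, with a largest adjusted p of 0.0662 without replicate 4 of day 0. With the number format as a term, the day 1 value of Mcm4 was 0.60 (adjusted p = 0.0733). The 2 genes whose day 1 libraries all lay above day 0 were Mcm4 and Pcna, and those of day 3 were Mcm4, Pcna and Gins2, where 21.5% and 16.9% of all genes tested did so.

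Mcm6, another ring subunit, was the most variable of the ring genes at day 0. Its level was 18.3, 7.06, 12.4 and 3.08 CPM in replicates 1 to 4 of day 0, 11.4, 62.9, 9.27, 10.1 and 10.5 CPM at day 1, and 26.3, 49.7, 74.6, 20.4 and 18.0 CPM at day 3. At day 1 only replicate 2 was above the day 0 range, and at day 3 replicate 5 lay just below the highest library of day 0, so that the days overlap in a single library. Its log2 fold change at day 1 was 1.03 ± 0.67 (standard error, with an edgeR adjusted p of 0.226) and that at day 3 was 1.89 ± 0.69 (adjusted p = 0.0478). This call at day 3 held in 5 of the 14 fits without a library, with adjusted p up to 0.118 without replicate 2 of day 0, and its log2 value ranged from 1.45 to 2.33. With the number format as a term the day 3 value of Mcm6 was 0.76 (adjusted p = 0.277), within the 1-digit libraries it was 0.91 (adjusted p = 0.236), and without a filter on low counts it was 1.85 (adjusted p = 0.0548).

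Mcm2, Mcm3, Mcm5 and Mcm7, the other ring subunits, were not called at either day. Mcm2 was at 31.3, 21.3, 23.9 and 18.1 CPM at day 0, at 28.5, 79.1, 19.6, 21.1 and 20.5 CPM at day 1, and at 28.0, 59.5, 62.9, 22.1 and 28.4 CPM at day 3. Mcm3 was at 13.98, 8.12, 9.10 and 4.96 CPM at day 0, at 14.7, 58.9, 11.8, 12.1 and 15.5 CPM at day 1, and at 10.2, 40.4, 41.8, 10.3 and 13.7 CPM at day 3. For both genes replicate 2 of day 1 and replicates 2 and 3 of day 3 stood above all other libraries, and most of the remaining libraries after IRI lay within the range of day 0. Mcm5 was at 23.2, 11.7, 16.3 and 6.53 CPM at day 0, at 14.5, 63.8, 12.7, 12.4 and 12.7 CPM at day 1, and at 22.1, 58.7, 63.7, 19.8 and 16.2 CPM at day 3. Mcm7 was at 35.03, 24.2, 25.0 and 23.5 CPM at day 0, at 28.3, 79.3, 19.97, 18.2 and 17.2 CPM at day 1, and at 32.6, 69.2, 76.8, 25.2 and 21.0 CPM at day 3. The same 3 libraries were the highest for Mcm5 and Mcm7, and replicates 3, 4 and 5 of day 1 were below every day 0 library for Mcm7 alone of the 10 genes, as they were for 33.3% of all genes tested. The log2 fold changes of these 4 genes ran from 0.28 (Mcm7) to 1.32 (Mcm3, adjusted p = 0.0829) at day 1 and from 0.74 (Mcm7) to 1.37 (Mcm3, adjusted p = 0.0873) at day 3. Their adjusted p-values by edgeR lay between 0.0829 and 0.66 at day 1 and between 0.0873 and 0.249 at day 3. Without replicate 2 of day 1, the day 1 value was -0.08 for Mcm2, -0.14 for Mcm5 and -0.36 for Mcm7.

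Per kilobase of the principal transcript (RPKM, with annotated lengths of 2910 bases for Mcm6 to 3589 bases for Mcm4), the ring genes were ordered Mcm7, Mcm2, Mcm5, Mcm4, Mcm6 and Mcm3 at day 0. Their mean levels were 9.09 ± 1.83, 7.02 ± 1.68, 4.27 ± 2.10, 3.71 ± 0.552, 3.51 ± 2.27 and 2.98 ± 1.23 RPKM (SD, n = 4) in that order. At day 3 the order was Mcm7, Mcm6, Mcm2, Mcm5, Mcm4 and Mcm3, at 15.2 ± 8.81, 12.99 ± 8.28, 11.9 ± 5.74, 10.7 ± 6.82, 9.08 ± 2.92 and 7.68 ± 5.40 RPKM (SD, n = 5). No neighbours in either order differed by more than the sum of their SDs. Pcna stood above the ring genes at 33.0 ± 6.34 RPKM (SD, n = 4) at day 0, and Cdc6 was the lowest of the 10 genes at 0.390 ± 0.177 RPKM (SD, n = 4).

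Cdc6, the ATPase that loads the ring together with the origin recognition complex, rested on 11 to 200 reads per library. It was at 1.61, 0.647, 1.07 and 0.665 CPM at day 0, at 1.02, 6.95, 1.02, 2.11 and 2.01 CPM at day 1, and at 1.22, 7.88, 9.90, 1.41 and 1.10 CPM at day 3. Replicate 2 of day 1 and replicates 2 and 3 of day 3 were more than 3 times as high as any other library, and at day 3 the other 3 libraries lay within the day 0 range. Cdc6 differed from day 0 by a log2 value of 1.40 ± 0.78 (standard error, with an edgeR adjusted p of 0.161) at day 1 and of 2.10 ± 0.79 (adjusted p = 0.0538) at day 3. The day 3 value was past the threshold in 4 of 14 fits without a library, with adjusted p from 0.031 to 0.143.

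Mcm10, which is needed to activate the loaded helicase, followed the other genes least. It was at 6.33, 5.41, 4.17 and 4.35 CPM at day 0, at 2.21, 7.95, 10.4, 6.57 and 6.19 CPM at day 1, and at 8.75, 13.3, 12.7, 6.19 and 6.98 CPM at day 3. At day 1 its highest library was replicate 3, in which Mcm2, Mcm5, Mcm6 and Mcm7 were no higher than their day 0 means, and its lowest was replicate 1. Across the 14 libraries its log2 CPM had a Pearson r of 0.586 with the mean of the other 9 genes, where the others had 0.794 (Gins2) to 0.970 (Mcm5). These values describe libraries that share their depth and day. The log2 fold change of Mcm10 at day 1 was 0.39 (with an edgeR adjusted p of 0.394), and at day 3 it was 0.92 ± 0.37 (standard error, adjusted p = 0.066).

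Gins2, a subunit of the GINS complex, had the largest difference of the 10 genes at day 3. It was at 4.72, 4.002, 3.79 and 2.48 CPM at day 0, at 7.76, 14.3, 3.34, 3.83 and 4.67 CPM at day 1, and at 18.7, 15.4, 25.7, 14.9 and 11.8 CPM at day 3. No library of day 3 fell into the day 0 range, and 4 of the 5 were also above every library of day 1, while 3 of the 5 libraries of day 1 were within the range of day 0. At day 3 Gins2 rose 4.61-fold over day 0 (log2 fold change 2.21, standard error 0.41, adjusted p = 0.00151), and it was called in all 14 fits without a library. At day 1 the log2 fold change was 0.86 (standard error 0.40, adjusted p = 0.0944).

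Pcna, the sliding clamp, rose at both days. It was at 59.1, 46.9, 56.2 and 37.9 CPM at day 0, at 88.1, 109, 66.5, 88.2 and 75.4 CPM at day 1, and at 74.8, 109.9, 156, 75.0 and 81.5 CPM at day 3. Every library after IRI was above every library of day 0, including those in which the ring genes were near the day 0 level. The mean of day 0 was 50.04 ± 9.62 CPM (SD, n = 4), that of day 1 was 85.4 ± 15.97 CPM and that of day 3 was 99.4 ± 34.6 CPM (SD, n = 5 each). Pcna rose by a log2 value of 0.77 ± 0.23 (standard error, adjusted p = 0.0152) at day 1 and of 0.99 ± 0.23 (adjusted p = 0.00551) at day 3. The day 1 call was lost only without replicate 4 of day 0 among the 14 fits without a library (adjusted p = 0.0529).

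The median log2 fold change of the 10 genes was 0.82 at day 1 and 1.31 at day 3, against medians of 0.00727 and 0.0542 over all genes tested. All 10 values were above 0 in both comparisons, which share the day 0 libraries. At an unadjusted p under 0.05 there were 4 genes at day 1 and 8 at day 3, all higher, where 27.9% and 25.3% of all genes tested were higher at that threshold. More kidney cells with these transcripts and more of the transcript per cell cannot be told apart in bulk tissue. Within day 0, replicate 1 had the highest level of all 10 genes and replicate 4 the lowest of 8, with summed levels of 209.9 and 114 CPM. Without replicate 4 of day 0, the adjusted p at day 1 was 0.0662 for Mcm4 and 0.0529 for Pcna, and without replicate 2 or 3 of day 0 or replicate 2 of day 1 a single gene was called at day 1. The count at day 3 was 3 without replicate 4 of day 0 and 7 without replicate 2 of day 1. Shares over all genes are not given for these fits.

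Day 3 was then compared with day 1 directly. Gins2 rose further from day 1 to day 3, by a log2 fold change of 1.34 (standard error 0.37, adjusted p = 0.026), and it was the 1 gene of 10 called, where 8.52% of all genes tested were called higher. The other 9 genes had log2 fold changes of 0.04 (Mcm3) to 0.85 (Mcm6) with adjusted p-values of 0.303 to 0.965 by edgeR. Within the formats Gins2 rose by 1.76 among 1-digit libraries (adjusted p = 0.00157, where 16.5% of all genes tested were called higher), and among 3-digit libraries it had 0.85 (adjusted p = 0.0888, where 7.5% were). Mcm4, which was called at both days against day 0, had 0.25 (standard error 0.32), and Pcna had 0.22 (standard error 0.21). Leaving out replicate 2 of day 1 raised the count of called genes to 5. The share of all genes called in that fit is not given here, so the change cannot be read as particular to these genes. Without replicate 3, 4 or 5 of day 1 or replicate 1 or 3 of day 3, Gins2 was past the threshold no longer, with adjusted p up to 0.0693 and a log2 value of 1.15 without replicate 3 of day 3.

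The format of the library number was compared within each day. At day 1 the 3-digit libraries (n = 2) were higher than the 1-digit libraries (n = 3) for 6 of the 10 genes, Mcm2, Mcm4, Mcm5, Mcm6, Mcm7 and Gins2, where 18.6% of all genes tested were called higher. The largest of these differences was 1.91 for Mcm6 (log2, standard error 0.66, adjusted p = 0.0395), and the one with the smallest adjusted p was 1.49 for Gins2 (standard error 0.32, adjusted p = 0.00375). Mcm10 had the only negative value, -0.60 (adjusted p = 0.288). These differences rest largely on 1 library. Without replicate 2 of day 1, which leaves a single 3-digit library, the log2 differences of the 6 genes were 0.20 to 0.98, and that of Mcm10 was -1.80. Without replicate 1, which also leaves a single 3-digit library, those of the 6 genes were 1.60 to 2.65. The count of called genes was 3 without replicate 3 or replicate 4 of day 1. Replicate 1 of day 1, also a 3-digit library, was above every 1-digit library of its day for 6 genes, by far smaller steps than replicate 2, as for Gins2 at 7.76 against 4.67 CPM or less. Summed cell type markers were split by format at day 1 as well, and their part in the licensing difference was not tested. Proximal tubule genes summed to 3738 to 4238 CPM in the 3-digit against 9038 to 14100 CPM in the 1-digit libraries, injured tubule genes to 8356 to 8362 against 3147 to 5693 CPM, and fibroblast and pericyte genes to 442.5 to 553.8 against 165.6 to 232.5 CPM. Macrophage, erythroid precursor, collecting duct and urothelium sums were also higher in both 3-digit libraries than in any 1-digit library of day 1.

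At day 3 the 3-digit libraries (n = 3) were higher than the 1-digit libraries (n = 2) for Mcm7 alone of the 10 genes (log2 difference 1.36, standard error 0.40, adjusted p = 0.0347 by edgeR), where 10.3% of all genes tested were called higher. The values of the other 9 genes ran from 0.54 (Pcna) to 2.32 (Cdc6, adjusted p = 0.0766), all above 0. Replicate 1 of day 3, a 3-digit library, had Mcm3 at 10.2 CPM and Cdc6 at 1.22 CPM, within the 1-digit range or below it. Without this library 6 genes were called, in a fit whose share over all genes is not given here. Without any of the other 4 libraries of day 3 the call for Mcm7 was lost, with adjusted p up to 0.209 and log2 values of 1.15 or more. The marker sums were also split at day 3, with proximal tubule genes at 6835 to 13180 CPM in the 3-digit against 2697 to 4813 CPM in the 1-digit libraries and injured tubule genes at 2242 to 5101 against 5241 to 7068 CPM. Endothelium genes were at 152.5 to 259.1 against 391 to 642.3 CPM and collecting duct genes at 363.3 to 696.8 against 217.2 to 355.5 CPM. Macrophage and B cell sums were also higher, and T cell sums lower, in the 3-digit than in any 1-digit library of that day, and the part of these markers was not tested. The difference between the format effects of day 3 and day 1 was past the threshold for none of the 10 genes by edgeR (17.6% of all genes tested were), for 1 gene (Mcm10, at 1.41) at an unadjusted p under 0.05 (32.9% of all genes tested), and for none by DESeq2. The formats were thus not shown to differ in effect between the days.

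Against day 0 within each format, 9 of the 10 genes (all but Mcm10, at 0.01) were called higher among 3-digit libraries at day 1, and all 10 at day 3, where 22.6% and 19.1% of all genes tested were. In the 1-digit libraries Pcna was called at day 1 (log2 0.62, adjusted p = 0.026) and Mcm4 (0.91, adjusted p = 0.023), Pcna (0.64, adjusted p = 0.0383) and Gins2 (1.83, adjusted p = 0.000263) at day 3, where 28.9% and 28.6% of all genes tested were called higher. Mcm4 at 0.49 (adjusted p = 0.143) was not called in the 1-digit libraries of day 1, and Mcm2, Mcm5, Mcm6 and Mcm7 had values of -0.21, -0.20, -0.04 and -0.54 there (Mcm7 adjusted p = 0.172). These calls depend on which libraries share the estimate of the spread. When only day 0 and the 1-digit libraries were fitted, Mcm4 (0.53, adjusted p = 0.00943), Mcm10 (0.64, adjusted p = 0.0343) and Pcna (0.65, adjusted p = 0.00465) were called higher and Mcm7 lower (-0.51, adjusted p = 0.0176) at day 1, where that fit called 31.5% of all genes higher and 29.8% lower. When only day 0 and the 3-digit libraries were fitted, 5 genes in place of 9 were called higher at day 1, namely Mcm2, Mcm3, Mcm4, Pcna and Gins2, and all 10 at day 3, where that fit called 22.9% and 19.3% of all genes higher. The day 1 count for 3-digit libraries rests on 2 libraries that differ. Replicate 2 had all 10 genes above every library of day 0, at a median of 4.07 times the day 0 mean, and replicate 1 had 4, at a median of 1.16 times, with Cdc6 at 1.02 CPM within the day 0 range. For Mcm2, Mcm5, Mcm6, Mcm7 and Cdc6, 5 of the 9 genes called, the 3-digit libraries of day 1 overlapped day 0. Gins2 at day 1 had 0.07 in the 1-digit and 1.56 in the 3-digit libraries. Because day 0 has no 3-digit library, the format and the time after IRI cannot be told apart in the 3-digit libraries.

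**Figure D2:**
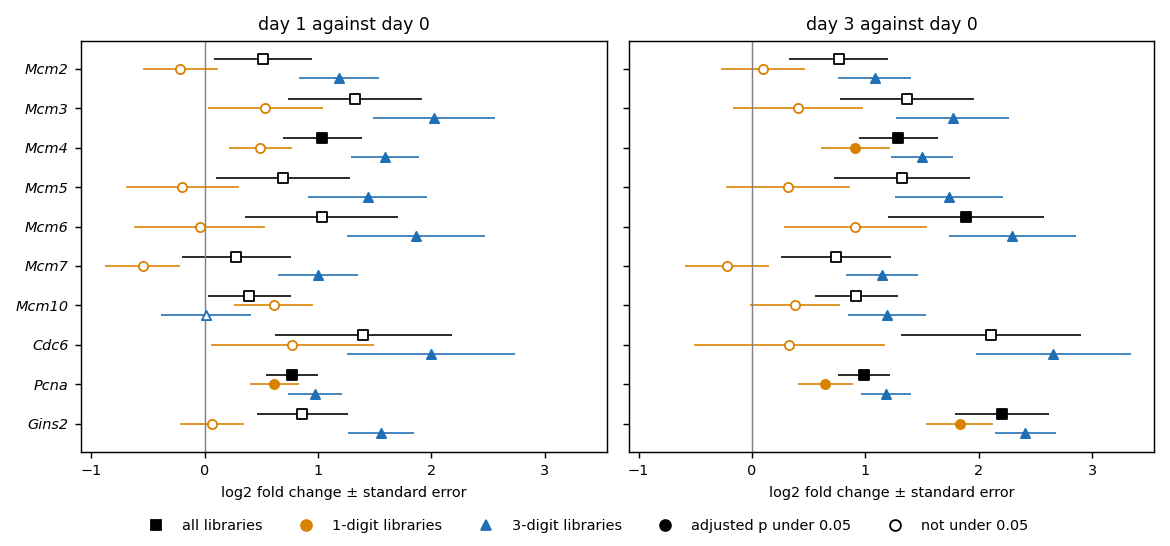
Log2 fold change against day 0 with its standard error (horizontal axis) for each licensing gene (rows) at day 1 and day 3, over all libraries (squares), 1-digit libraries (circles) and 3-digit libraries (triangles), filled where the adjusted p was under 0.05. At day 3 Gins2 lies at 1.83 in the 1-digit and 2.41 in the 3-digit libraries, while Mcm7 lies at -0.22 and 1.14.

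The licensing genes were set beside 20 genes of mitosis, such as Ccnb1 (cyclin B1, which drives entry into mitosis), Bub1 and Bub1b (kinases of the spindle checkpoint). In replicate 2 of day 1 the summed licensing level was 539.6 CPM and the summed mitosis level 90.4 CPM, while day 0 libraries had 114 to 209.9 CPM and 27.9 to 76.3 CPM. Replicate 1 of day 3 lay nearer to day 0 for licensing, at 248 CPM, and far above it for mitosis, at 627 CPM. Replicates 2 and 3 of day 3 were high in both, at 465 and 570.4 CPM for licensing and 780.2 and 982 CPM for mitosis. Replicates 4 and 5 of day 3 were at 219 and 225 CPM for licensing and 113 and 56.6 CPM for mitosis, and the other libraries of day 1 were near day 0 in both sums. Of the 20 mitosis genes, 1 was called higher at day 1 and all 20 at day 3, where 23.3% and 19.5% of all genes tested were called higher, with median log2 fold changes of 0.29 and 3.34. Within the 1-digit libraries 5 of the 20 were called higher at day 3, where 28.6% of all genes tested were, and within the 3-digit libraries all 20 were, where 19.1% were. The format difference of day 3 was called for 19 of the 20, each higher in the 3-digit libraries, where 10.3% of all genes tested were called higher. The day 0 mean of Ccnb1 was 1.79 ± 1.01 CPM (SD, n = 4), and its means at days 1 and 3 were 2.56 ± 1.08 and 28.3 ± 21.4 CPM (SD, n = 5 each).

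**Figure D3:**
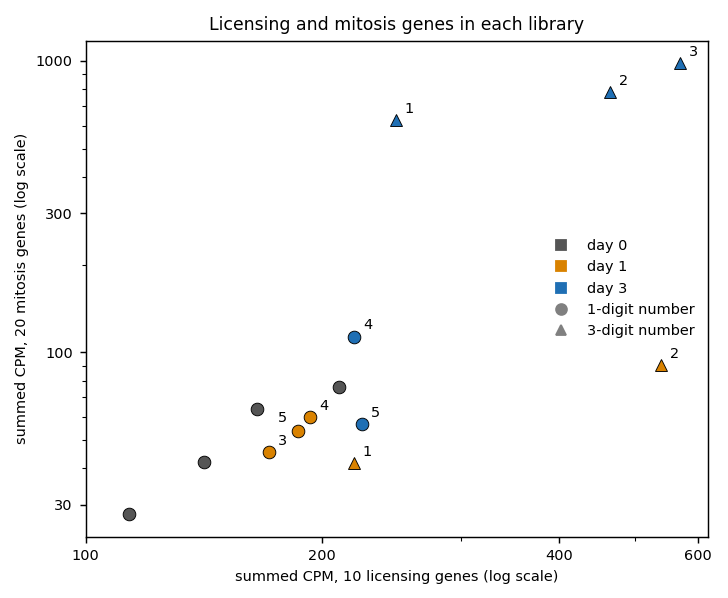
Summed CPM of the 10 licensing genes (horizontal, log scale) against summed CPM of 20 mitosis genes (vertical, log scale), a point per library, coloured by day and shaped by number format, with replicate numbers beside the points after IRI. Replicate 2 of day 1 lies far right and low (539.6 and 90.4 CPM), replicate 1 of day 3 high and further left (248 and 627 CPM), and replicates 2 and 3 of day 3 high on both axes.

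The other genes of replication were read by role from lists that do not hold the 10 licensing genes. Of 85 genes in 9 lists, 84 were tested, 22 were called higher and 2 lower at day 1, and 40 higher and 4 lower at day 3. Of all genes tested, 42.1% were called at day 1 (18.7% lower) and 33.3% at day 3 (13.8% lower). The median log2 fold changes of the 84 genes were 0.34 and 0.84. From day 1 to day 3, 11 rose and 1 fell, with a median of 0.40, where 15.9% of all genes tested were called and 7.39% were lower. Within the formats, 28 of the 84 genes were called higher than day 0 in the 1-digit libraries of day 3 and 55 in the 3-digit libraries, where 28.6% and 19.1% of all genes tested were. The 3-digit libraries were called higher for 36 genes at day 1 and 19 at day 3, where 18.6% and 10.3% of all genes tested were. The count of calls at day 3 was 44, and it was 26 without replicate 4 and 29 without replicate 2 of day 0. Between day 3 and day 1 it was 12, with 35 without replicate 2 of day 1 and 4 to 7 without replicate 3 of day 0, replicate 3, 4 or 5 of day 1 or replicate 2 or 3 of day 3.

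In origin recognition and loading, the step directly before the ring, 4 of 9 genes were called higher at both days, and 1 fell at day 3. Orc6, a subunit of the origin recognition complex, rose from 5.82 ± 0.745 CPM (SD, n = 4) to a day 1 mean of 18.0 ± 4.32 CPM and a day 3 mean of 14.5 ± 2.42 CPM (SD, n = 5 each). Cdt1, the partner of Cdc6 in loading, had log2 fold changes of 1.59 at day 1 (adjusted p = 0.00224) and 1.15 at day 3 (adjusted p = 0.0167 by edgeR), and Orc1 had 2.19 and 2.34. In origin firing 2 of 11 genes rose at day 1 and 7 at day 3. Dbf4, the activating subunit of the kinase that phosphorylates the ring, rose by 1.84 at day 1 and 2.11 at day 3, and Ticrr and Recql4, which help to recruit Cdc45 and GINS, rose by 3.68 and 2.03 at day 3. Mcm8 and Mcm9, which resemble the ring subunits but act in DNA repair, had log2 fold changes of -0.05 and 0.20 at day 1 and of 0.75 (adjusted p = 0.0897 by edgeR) and 0.26 at day 3.

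Among replicative polymerases and primase 3 of 12 genes rose at day 1, and at day 3 6 rose and 1 fell, with Pola2 at 0.93 and 1.16 and Pold4 at 1.17 and 1.45. Pole, the catalytic subunit of polymerase epsilon, had 0.24 (adjusted p = 0.814) at day 1 and rose by 2.26 at day 3. Among clamp loaders, which place Pcna on DNA, 1 of 8 rose at day 1 and 5 at day 3. Rfc3 was higher by 1.42 and 1.29, and Atad5, which unloads Pcna, had 0.26 (adjusted p = 0.582) at day 1 and rose by 1.30 at day 3, as did Chtf18 by 2.73. In strand binding and Okazaki processing 3 of 7 rose at either day, namely Rpa2 (1.78 and 1.46), Fen1 (1.22 and 1.36) and Rnaseh2a (0.67 and 0.83).

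In nucleotide supply 3 of 7 genes rose at day 3, namely Rrm2 and Rrm1, the subunits of ribonucleotide reductase, by 3.70 and 1.08, and Tk1, thymidine kinase, by 2.09. At day 1 they had 1.35 (adjusted p = 0.0505), 0.14 (adjusted p = 0.736) and -0.35 (adjusted p = 0.615) by edgeR. Rrm2, Rrm1 and Tk1 also rose between day 1 and day 3, by 2.35, 0.93 and 2.44. In chromatin assembly behind the fork 2 of 6 rose at day 1 and 5 at day 3. Chaf1b, a subunit of the histone chaperone that works at the fork, rose by 2.02 and 2.86, and Uhrf1 and Asf1b rose by 2.55 and 2.46 at day 3. In fork protection and checkpoint 3 of 8 rose and 1 fell at day 1, and 2 rose at day 3, Tipin by 0.81 and Rad9a by 0.59. In E2F and G1/S control 4 of 16 rose and 1 fell at day 1, and 5 rose and 2 fell at day 3, when E2f7 and E2f8, repressors of the E2F family that are themselves E2F targets, rose by 3.25 and 3.13 and Ccne1, cyclin E1, by 2.15. Among the replication genes named here by role, the format difference of day 1 was called for Chtf18 (log2 3.49), Uhrf1 (2.94), Pole (2.82), Ticrr (2.07), Pold4 (1.78), Rnaseh2a (0.91) and Tipin (0.66), each higher in the 3-digit libraries, and for Dbf4, lower there (-1.16, adjusted p = 0.0026 by edgeR). That of day 3 was called for E2f8 (log2 3.22, adjusted p = 0.00683 by edgeR), E2f7 (2.54), Ticrr (2.33), Rrm2 (2.09), Ccne1 (2.04), Chtf18 (1.97) and Asf1b (1.71), each higher in the 3-digit libraries. The rises over day 0 of these genes are means over both formats. Of 12 p53 targets 9 rose at day 1 and 5 at day 3, where 23.3% and 19.5% of all genes tested were called higher. Cdkn1a, the inhibitor of cyclin-dependent kinases that holds cells in G1, rose by 3.94 at day 1 and 2.83 at day 3, Gdf15 by 3.85 and 2.74, and Eda2r by 1.86 and 2.26. The 3-digit libraries were below the 1-digit ones for Cdkn1a at day 1 (log2 -1.71, adjusted p = 0.0355) and for Gdf15 at day 3 (-1.09, adjusted p = 0.0391), and above them for Eda2r at day 1 (1.40, adjusted p = 0.028).

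**Figure D4:**
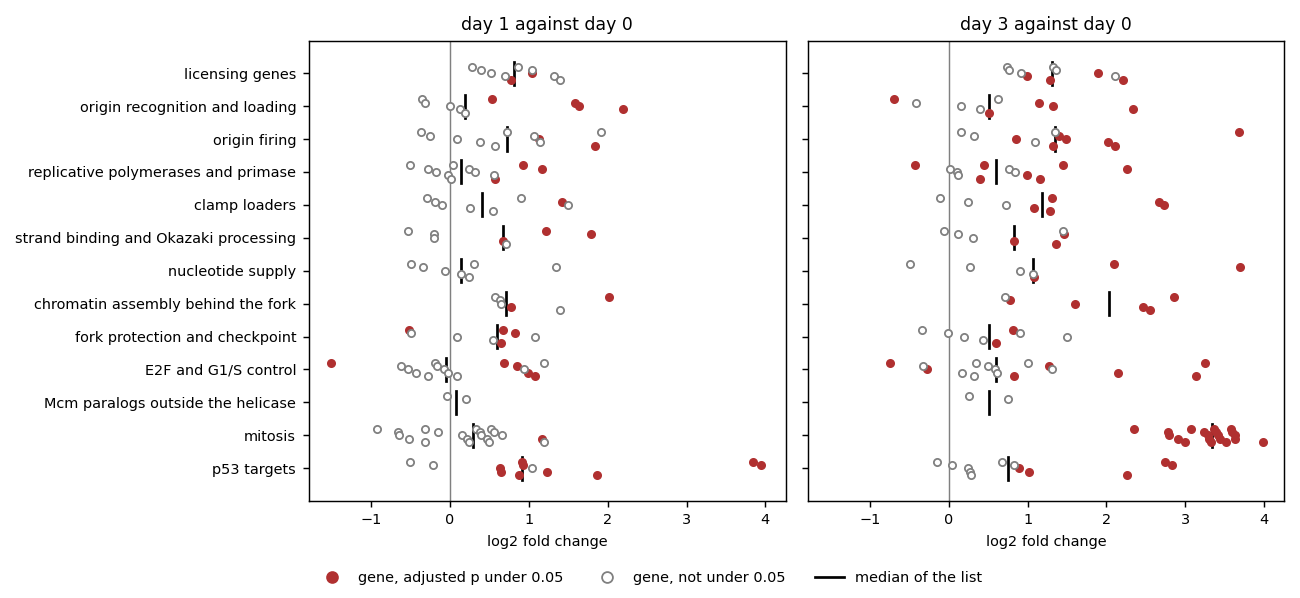
Log2 fold change of single genes (points, horizontal axis) at day 1 and day 3 against day 0, by list (rows), filled red where the adjusted p was under 0.05, with a bar at the median of the list. The licensing genes have medians of 0.82 and 1.31, and the mitosis list moves from 0.29 at day 1 to 3.34 at day 3.

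The genes outside these lists whose log2 CPM was most like the licensing genes over the 14 libraries, among 13135 genes compared, were Exo1 (Pearson r = 0.950), Dtl (0.948), Pkmyt1, Hells, Fignl1, Nrm, Dsn1, Apitd1, Tmpo and Tcf19 (0.923). These values describe the libraries and carry no test. Exo1, an exonuclease of repair and replication, was at 0.121 to 0.805 CPM at day 0 and at 4.04 CPM in replicate 2 of day 1, its highest value of that day. Dtl, part of the ubiquitin ligase that removes Cdt1 from cells in S phase, was at 0.665 to 3.28 CPM at day 0, 14.8 CPM in replicate 2 of day 1 and up to 20.8 CPM at day 3. Hells, a chromatin remodeler, reached 25.0 CPM in replicate 2 of day 1 against 2.24 to 6.21 CPM at day 0.

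Markers of cell types moved with the days and with some libraries, and their part in the licensing levels was not tested. Of all genes tested, 23.3% were called higher and 18.7% lower at day 1, and 19.5% and 13.8% at day 3. The 10 proximal tubule genes summed to 3738 to 14100 CPM at day 1 and 2697 to 13180 CPM at day 3, and 5 and 4 of them fell. The 8 injured tubule genes summed to 389.5 to 475.2 CPM at day 0 and to 2242 to 8362 CPM after IRI, and 7 of 8 rose at both days. The 8 fibroblast and pericyte genes summed to 141.5 to 150.2, 165.6 to 553.8 and 576.5 to 1446 CPM at day 0, day 1 and day 3, and 3 and 7 rose. The 10 macrophage genes summed to 137.8 to 226.9, 87.0 to 154.3 and 105 to 470.3 CPM, with 1 higher and 1 lower at day 1 and 3 higher and 1 lower at day 3, and the 3-digit libraries of day 3 had 239.8 to 470.3 CPM against 105 to 127.1 CPM in the 1-digit ones. The 6 neutrophil genes summed to 1.33 to 2.07 CPM at day 0 and to 19.6 to 418.8 CPM after IRI, and all 6 rose. T cell genes summed to at most 4.70 CPM and B cell genes to at most 2.18 CPM, with Pax5 at 0 reads in every library of day 0 and day 3. Of these, 2 T cell genes and 1 B cell gene passed the filter on low counts, and 1 T cell gene rose and 1 fell at each day. In the erythroid precursor list Hbb-bs and Hba-a1 were at 0 reads in every library, and the sum was 94.05 to 271.2 CPM, with 1 gene lower at day 3. The endothelium list summed to 238.8 to 308.8 CPM at day 0 and 152.5 to 642.3 CPM after IRI, with 1 gene higher and 1 lower at day 1. Collecting duct genes summed to 707.5 to 1003 CPM at day 0 and 217.2 to 727.5 CPM after IRI, with 2 and 3 of 6 lower, and urothelium genes to 2.41 to 79.0 CPM at day 0 and 2.82 to 116.7 CPM after IRI, with 1 of 6 lower at day 3.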

How the data were processed

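Bulk RNA sequencing of mouse kidney was analysed in 14 libraries. The submitters' processing notes name Trimmomatic, STAR and mm10, with versions and settings not given in the sources used here. The authors deposited STAR's gene counts, which hold uniquely mapped reads only, without regard to strand and for each strand. The reverse-strand column, with 98.5% to 98.7% of strand-assigned reads, was used. Reads in entries without a gene name (29.0% to 38.3% of a library) were left out.

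Groups came from the titles. The 10 genes, the role and marker lists and the treatment of the number format were chosen with earlier results of these data known. edgeR 4.0.16 (R 4.3.3, limma 3.58.1) filtered genes by expression, scaled by TMM and tested days in 1 quasi-likelihood fit of the 14 libraries, with p-values adjusted over 14300 genes by the Benjamini-Hochberg method, calling an adjusted p under 0.05. A second fit had a term for each day and number format. The fit by day was also run on simulated counts with 200 changed genes, the same spread for every gene and no difference between formats. In the comparison of day 3 with day 0 it recovered 99 of 99 at a log2 change of 2 and 80 of 99 at 1. Among 193 called of 14139 genes, 14 were false calls. Genes that vary more between libraries, such as Cdc6 and Mcm6, were not simulated, so this recovery need not hold for them. CPM divided counts by the TMM-scaled total over the genes tested, and RPKM further by the longest principal transcript in GENCODE M21. Named from each role list were the 3 genes with the largest absolute day 3 difference among those called with a mean of at least 1 CPM, and as similar genes the 10 with the highest Pearson r to the mean z-score of the 10 genes (log2 CPM, prior count 2). Within lists, Claspn and Trac matched no symbol. Libraries of a group that share a replicate number across days did not deviate together, so no pairing was used.

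Alternatives were DESeq2 1.42.0 in place of edgeR, unstranded counts, scaling by RLE or by totals alone, no low-count filter or one of 10 counts in each library, fits of only the 2 days compared, a term for the number format, each format alone, a replicate block and each library left out. Their use on the counts of other replication and mitosis genes was added after seeing the data.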

Additional observations from a re-analysis of the deposited data

Results flagged for a closer look

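In replicate 2 of day 1, a 3-digit library, 7 of the 10 licensing genes stood far above the other 4 libraries of the day. Mcm2 was at 79.1 CPM against 28.5 CPM in the next library, Mcm3 at 58.9 against 15.5 CPM, Mcm4 at 57.6 against 22.7 CPM, and Mcm5 at 63.8 against 14.5 CPM. Mcm6 was at 62.9 against 11.4 CPM, Mcm7 at 79.3 against 28.3 CPM, and Cdc6 at 6.95 against 2.11 CPM. The gap to the nearest library was 0.816 to 0.960 of the range of the day for these genes, above Dixon's 95% critical value of 0.71 for 5 libraries. The 10 genes are not independent of each other, so these values describe a single library. At day 0, Mcm7 was at 35.03 CPM in replicate 1 against 25.0 CPM in the next library (gap 0.870 of the range, above the limit for 4 libraries). Each of the 10 genes was examined in each day, and 8 of these 30 sets of values passed this limit, 7 of them through replicate 2 of day 1. Independent sets would give about 1 in 20, or 1.5. Because the genes are not independent, 8 cannot be set against that number. The same library of day 1 had the highest sums of that day for urothelium genes (116.7 CPM against 5.11 to 19.0 CPM), erythroid precursor genes (271.2 against 121.9 to 186.9 CPM) and fibroblast and pericyte genes (553.8 against 165.6 to 442.5 CPM), and the lowest for proximal tubule genes (3738 against 4238 to 14100 CPM). The erythroid sum holds no reads of Hbb-bs and Hba-a1, which were at 0 in every library. The part of these markers in the licensing levels was not tested.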

How the results depend on the processing

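Over 11 settings other than leaving out a library, 489 of 540 log2 values of single licensing genes kept their direction and their side of the threshold, 13 lost and 21 gained a call, and 17 reversed. With each library left out, 753 of 840 kept both, 39 lost and 25 gained a call, and 23 reversed. The causes were not tested.

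The count of licensing genes called was 2 at day 1, and became 1 with the number format as a term, 4 with only 1-digit libraries (Mcm4, Mcm10 and Pcna higher, Mcm7 lower) and 5, all higher, with only 3-digit libraries. The 4 at day 3 became 7 with DESeq2 and 10 with only 3-digit libraries. The 1 from day 1 to day 3 became 0 with only 3-digit libraries (Gins2 adjusted p = 0.115) and 0 with only the 2 days compared. For the number format, the 6 of day 1 became 0 and the 1 of day 3 became 0 with the replicate block, and the latter became 3 with DESeq2. At days 1 and 3 replicates 1 and 2 are 3-digit and replicates 4 and 5 are 1-digit libraries, so the block cannot separate replicate number from format well. With the block the log2 values of the 6 genes of day 1 were 0.96 to 1.39, against 1.10 to 1.91 without it. The replicate block changed no other count by over 1.5 times. Same-numbered libraries of different days had correlations of -0.175 to 0.261 (4 of 13 pairs over 0.1), and 4 of 14 libraries correlated best with their own number, so the libraries share only a number and the block is not a pairing. With each library left out, the counts ran from 0 to 3 at day 1, 3 to 7 at day 3, 0 to 5 from day 1 to day 3 and 0 to 6 for the format at day 3. For the format at day 1 and the difference of the formats some of these fits leave a single library in a group, so no count is given. Where the share of all genes called in a setting is not given, a change of count cannot be read as particular to the genes counted.

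The count of other replication genes called, 24 at day 1, became 41 with only 1-digit and 40 with only 3-digit libraries. From day 1 to day 3 the 12 became 21 with DESeq2, 5 with only the 2 days, 19 with the format as a term and 32 with only 1-digit libraries. Leaving out a library gave 26 to 48 at day 3, where 44 were called, and 4 to 35 between day 1 and day 3. The 20 mitosis genes called at day 3 became 11 with the format as a term and 3 with only 1-digit libraries, and the 1 called at day 1 became 2 to 4 in 7 settings, with 4 from only 1-digit libraries.

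At day 1 the log2 values reversed with the format as a term to -0.13 (Mcm2), -0.15 (Mcm5) and -0.51 (Mcm7), and with only 1-digit libraries to -0.18 (Mcm2), -0.16 (Mcm5), -0.0095 (Mcm6) and -0.51 (Mcm7, adjusted p = 0.0176 by edgeR). At day 3 they reversed with the format as a term to -0.027 (Mcm2) and -0.27 (Mcm7), and with only 1-digit libraries to -0.20 (Mcm7). From day 1 to day 3, Mcm3 reversed to -0.20 with the format as a term, -0.15 with only 1-digit and -0.26 with only 3-digit libraries. In the same comparison only 1-digit libraries gave -0.46 (Cdc6) and -0.25 (Mcm10), and only 3-digit libraries -0.11 (Mcm2) and -0.10 (Mcm4).

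With each library left out, the values that reversed ran from -0.077 to 0.68 (Mcm2), -0.14 to 1.02 (Mcm5) and -0.36 to 0.44 (Mcm7) at day 1, and from -0.28 to 0.79 (Mcm3) and -0.011 to 0.32 (Pcna) from day 1 to day 3. For the format at day 1 they ran from -1.80 to 0.027 (Mcm10) and -0.74 to 2.00 (Cdc6). For the difference of the formats they ran from -0.94 to 0.51 (Mcm2), -0.78 to 1.20 (Mcm3), -1.01 to 0.30 (Mcm4), -0.90 to 1.22 (Mcm5), -1.26 to 1.18 (Mcm6), -0.72 to 0.75 (Mcm7) and -0.10 to 0.40 (Pcna).

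Total counts without TMM moved the median of all genes by 0.14 at day 3, 0.15 from day 1 to day 3, 0.21 for the format at day 1 and -0.17 for the difference of the formats (log2), and reversed no licensing gene. Groups of 2 or 3 libraries of a format, with a spread as wide as that of Cdc6, limit what could be detected, and Cdc6 rests on as few as 11 reads in a library and Mcm10 and Gins2 on 41.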

Other observations

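Of the 10 genes with a pattern most like the licensing genes, Pkmyt1, the inhibitory kinase of cyclin-dependent kinase 1, was at 0.907 to 1.26 CPM at day 0, 1.43 to 4.32 CPM at day 1 and 1.32 to 9.85 CPM at day 3, with no overlap between day 0 and the later days. Tcf19, a gene first known for its rise at the G1/S boundary, was at 3.08 to 5.87, 4.22 to 12.8 and 9.48 to 31.2 CPM, and day 3 did not overlap day 0. Tmpo, which encodes proteins of the nuclear lamina, was at 56.4 to 72.4, 67.4 to 118 and 78.7 to 132 CPM. These genes were singled out after their values were seen.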
